A study of Canis lupus familiaris with 10 samples.

Results

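The transcripts of 10 secreted matrix proteins were followed through cultured canine hemangiosarcoma cells. The genes are those of tenascin C (TNC), osteopontin (SPP1), SPARC, periostin (POSTN), fibronectin (FN1), reelin (RELN), the latent TGF-beta binding proteins LTBP2 and LTBP1, fibrillin 1 (FBN1) and elastin (ELN). Every probe set that the array's annotation names for these 10 genes was taken, which gave 25 of the 42924 probe sets besides the controls. A probe set is a group of short oligonucleotides that together give 1 signal for a transcript. They are 10 of the 15115 genes that this annotation names. The genes were chosen by their signal levels, their gain or loss in single cultures and their co-variation on these same arrays, so those patterns and the values between breeds are given as a description. Of the 25 probe sets, 22 were among the 26787 that passed a filter on dim signals and were tested.

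Hemangiosarcoma is a malignant tumor of dogs with features of blood vessel lining cells, and all 10 tumors were of the spleen. The cells had been frozen at the earliest passages kept, and no culture was treated. The Golden Retriever group held 6 dogs, of which CHAD-G4, CHAD-G8 and Tucker were male and CHAD-G6, Frog and Journey were female by the study's record, and Frog and Journey were distant relatives. The non-Golden Retriever group held 3 male dogs, the Portugese Water Dog CHAD-P9, the Dalmation Dal-4 and the Rottweiler Joey, whose breed field repeats the dog's name while its title gives the breed. DD-1, a male labelled Golden Mix and called F1 here after the study's name for it, belonged to neither group. Each culture came from 1 dog and was measured on 1 array, so every SD below is a spread between dogs and no culture has a replicate. The ages of the dogs are not in the labels but are given in the study's record, and age was not used in the comparison.

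Matricellular proteins such as tenascin C, osteopontin, SPARC and periostin are secreted into the matrix but act mainly by altering how cells attach, spread and respond to growth factors, and do little to hold tissue together. Fibronectin is the adhesive fibril that cells assemble through integrins. Fibrillin 1 forms the microfibrils onto which elastin is laid down and to which latent TGF-beta binding proteins attach, LTBP1 as a carrier of latent TGF-beta. Reelin is a secreted glycoprotein best known for guiding neurons, through the receptors VLDLR and LRP8 and the adaptor DAB1, and it is also made by lymphatic endothelium. These proteins are made by fibroblasts, pericytes and some endothelial cells, and several of them increase where vessels grow or tissue is remodelled.

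The cultures carried the transcripts of matrix-producing mesenchymal cells more clearly than those of blood vessel endothelium. Of 10 endothelial markers, PECAM1 (4.03 to 4.72), TEK (3.34 to 3.79) and EMCN (4.60 to 5.13) stayed at or below the 40th percentile of the array in all 10 cultures. CDH5 (5.15 to 5.41), TIE1 (5.06 to 5.72) and KDR, the VEGF receptor 2 (6.51 to 8.25), were above it in all. The transcription factor ERG (4.80 to 6.93) was above it in 9 cultures and FLT1, the VEGF receptor 1 (3.50 to 8.38), in 4. VWF (4.75 to 6.08) was above it in 2 and ENG (3.85 to 5.99) in 1. The 40th percentile lay between 5.02 and 5.16 and serves here as the mark of a dim signal, and all signals are on the log2 scale. The fibroblast and pericyte markers were above it in all cultures, 7 of 7 genes, except in Dal-4, where 6 of 7 were, with COL1A2 at 14.00 to 14.32 and COL3A1 at 13.92 to 14.33. Of the 8 leukocyte markers, PTPRC, ITGAM, CD163 and CD79A were above it in 0 cultures, while CD14 (5.98 to 7.98), CD3E (6.19 to 6.61), CD68 (5.57 to 6.98) and CSF1R (5.23 to 5.48) were above it in all 10. Epithelial and mesothelial markers were present too. Of the 5 on the array, UPK3B (5.40 to 5.92) was above the 40th percentile in all 10 cultures, KRT8 (3.82 to 11.67) in 9 and KRT18 (3.57 to 13.22) in 7. EPCAM was above it in 2, Joey at 8.87 and Tucker at 8.03, and CDH1 in 0. In such bulk RNA, fewer cells of a type and less RNA per cell cannot be told apart.

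A pair of cultures, 1 of each breed group, stood apart from the rest at many genes. In CHAD-G4, 38 tested probe sets lay at least 2 log2 units above every other culture and 48 lay that far below, and in Dal-4 the counts were 11 and 67. The smooth muscle actin gene ACTA2 was 6.39 in CHAD-G4 and 9.73 to 14.13 elsewhere, and the collagen-binding proteoglycan LUM was 4.40 in Dal-4 and 12.47 to 14.08 elsewhere. Dal-4, recorded as male, also went against its record at 1 of the 3 EIF2S3 probe sets, with 2.95 where the 3 females had 3.08 to 3.33 and the 6 other males 10.15 to 10.60. The other EIF2S3 probe sets did not separate the recorded sexes. The male CHAD-G4 had 13.18 and 12.19 there, where the females had 12.98 to 13.23 and 12.01 to 12.12. Values that rest on CHAD-G4 or Dal-4 are therefore given with and without these cultures.

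**Figure D1:**
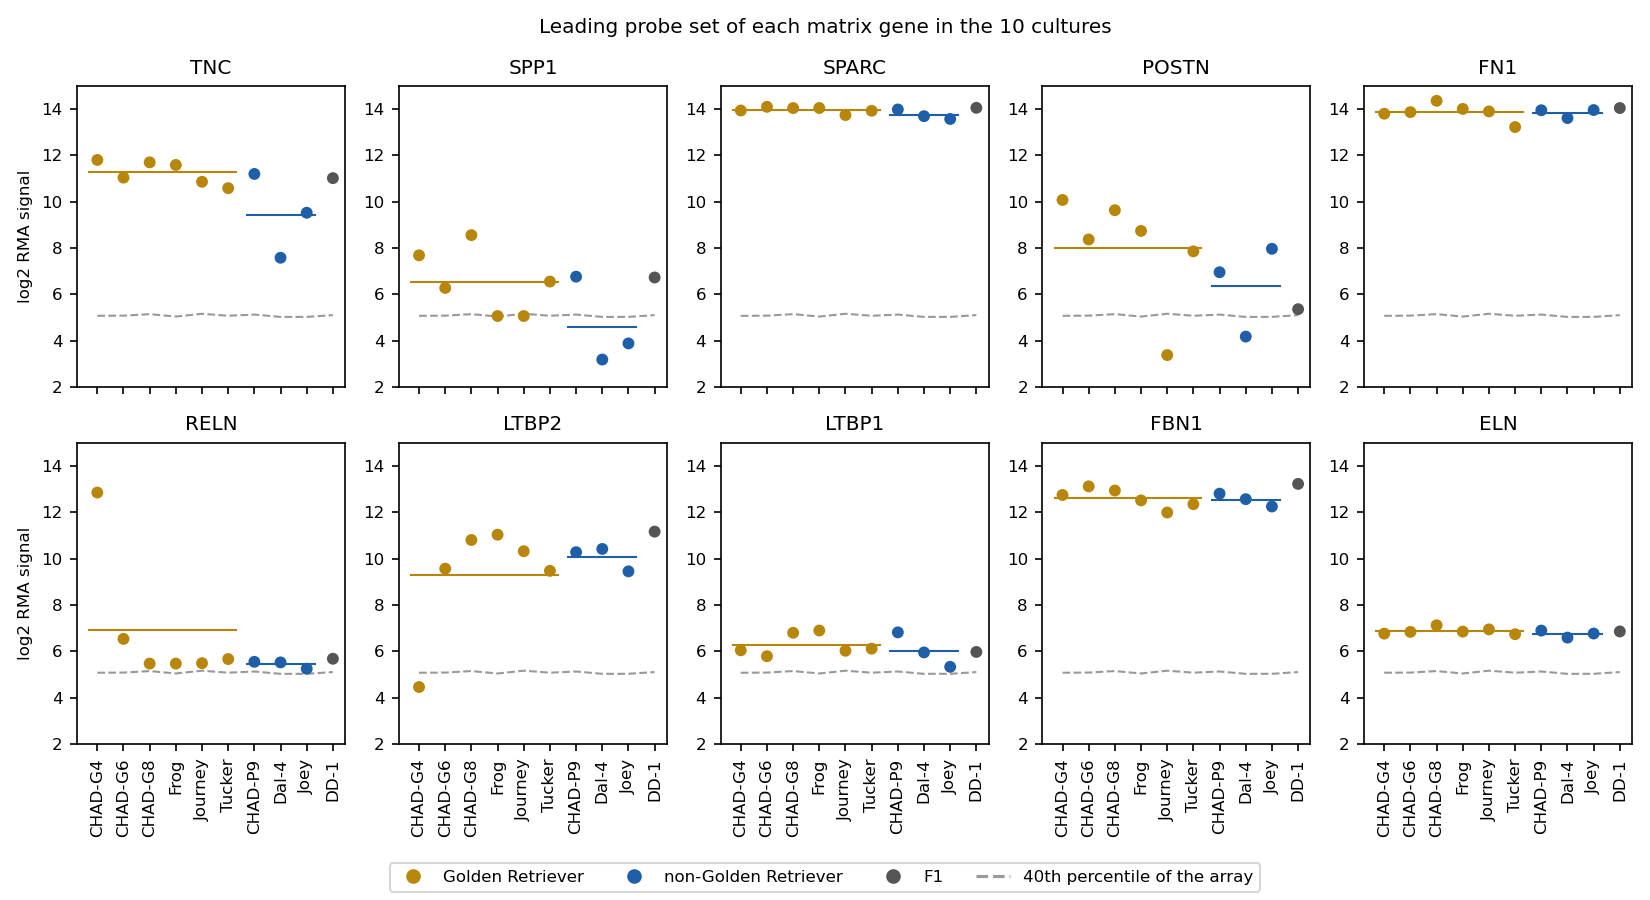
The log2 RMA signal (vertical axis) of the leading probe set of each of the 10 matrix genes in each of the 10 cultures, with 1 point per culture colored by breed group. Short lines mark the 2 group means and the dashed line the 40th percentile of each array. RELN has a single point at 12.86 and LTBP2 a single point at 4.45, both CHAD-G4, while SPARC, FN1, FBN1 and ELN lie close together, and the height of one gene cannot be read against another because probe sets differ in brightness.

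Where a gene had several probe sets, the one with the highest mean over the 10 arrays leads and is called its first probe set, and the others are numbered in falling order of that mean. Of the 10 first probe sets, 7 were above the 40th percentile in all 10 cultures. The exceptions were SPP1 with 7 cultures, POSTN with 8 and LTBP2 with 9. The genes differed widely in how much they varied between dogs. Over all tested probe sets the median range from the lowest to the highest culture was 1.06 log2 units, and 2.7% of them had a range of 4 log2 units or more. The members with such a range were 7 of 25 probe sets, 6 of the 22 tested, and belonged to TNC, SPP1, POSTN, RELN and LTBP2.

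Tenascin C, which loosens the attachment of cells to fibronectin, was strongly expressed in most cultures and lowest in 2 of the 3 non-Golden Retrievers. Its only probe set gave 11.81 in CHAD-G4, 11.04 in CHAD-G6, 11.70 in CHAD-G8, 11.59 in Frog, 10.86 in Journey and 10.59 in Tucker. In the other breeds it gave 11.20 in CHAD-P9, 7.58 in Dal-4 and 9.52 in Joey, and it gave 11.02 in the F1 dog. CHAD-P9 lay inside the Golden Retriever range, so the groups overlapped. The Golden Retriever cultures were close together, with an SD of 0.502 (n = 6), against 1.81 (n = 3) in the other breeds. Dal-4 lay 1.94 log2 units below the next culture, just short of the 2 units that define a loss here.

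Osteopontin, a phosphoprotein that binds integrins and CD44, followed a similar order. The first SPP1 probe set was highest in CHAD-G8, at 8.56, and in CHAD-G4, at 7.69, with CHAD-P9 at 6.76, the F1 dog at 6.73, Tucker at 6.55 and CHAD-G6 at 6.28. Frog and Journey both gave 5.06, and Joey and Dal-4 gave 3.88 and 3.18, signals below the 40th percentile. The second probe set ran lower, from 2.41 to 5.60, and was above the 40th percentile in CHAD-G8 alone, yet it ordered the cultures much as the first did (r = 0.925 over 10 arrays).

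Periostin, a ligand of integrins in remodelled tissue, spanned 6.70 log2 units, against 5.38 for SPP1, 4.22 for TNC and 0.526 for SPARC. Its signal was 10.08 in CHAD-G4, 9.63 in CHAD-G8, 8.74 in Frog, 8.37 in CHAD-G6 and 7.86 in Tucker, but 3.38 in Journey. In the other breeds it was 7.97 in Joey, 6.95 in CHAD-P9 and 4.17 in Dal-4, and it was 5.36 in the F1 dog. The cultures thus ran through the whole range, from no more than a dim signal in Journey and Dal-4 to a clear one in CHAD-G4. Journey and its relative Frog differed by most of that range.

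SPARC, a collagen-binding protein of remodelled matrix, was close to uniform. Its first probe set ran from 13.58 in Joey to 14.10 in CHAD-G6, and the 3 non-Golden Retrievers gave 13.99, 13.70 and 13.58. The second ran from 12.84 to 13.85 and tracked the first (r = 0.912).

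Fibronectin was bright in all cultures by its first probe set, from 13.23 in Tucker to 14.36 in CHAD-G8, and by its second, from 13.17 to 13.61. The 4 FN1 probe sets did not order the cultures alike, since the second, the third and the fourth had r of 0.363, 0.689 and 0.255 with the first. The third was 12.29 in CHAD-G4, 12.38 in Tucker and 12.58 in CHAD-G6, and 13.23 to 13.71 in the 7 other cultures. The fourth was 9.52 in Joey and 10.17 in CHAD-G4, and reached 11.72 in CHAD-G8 and 11.67 in the F1 dog. Fibronectin is made in several spliced forms, and which form each probe set reads is not given in the files used here.

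**Figure D2:**
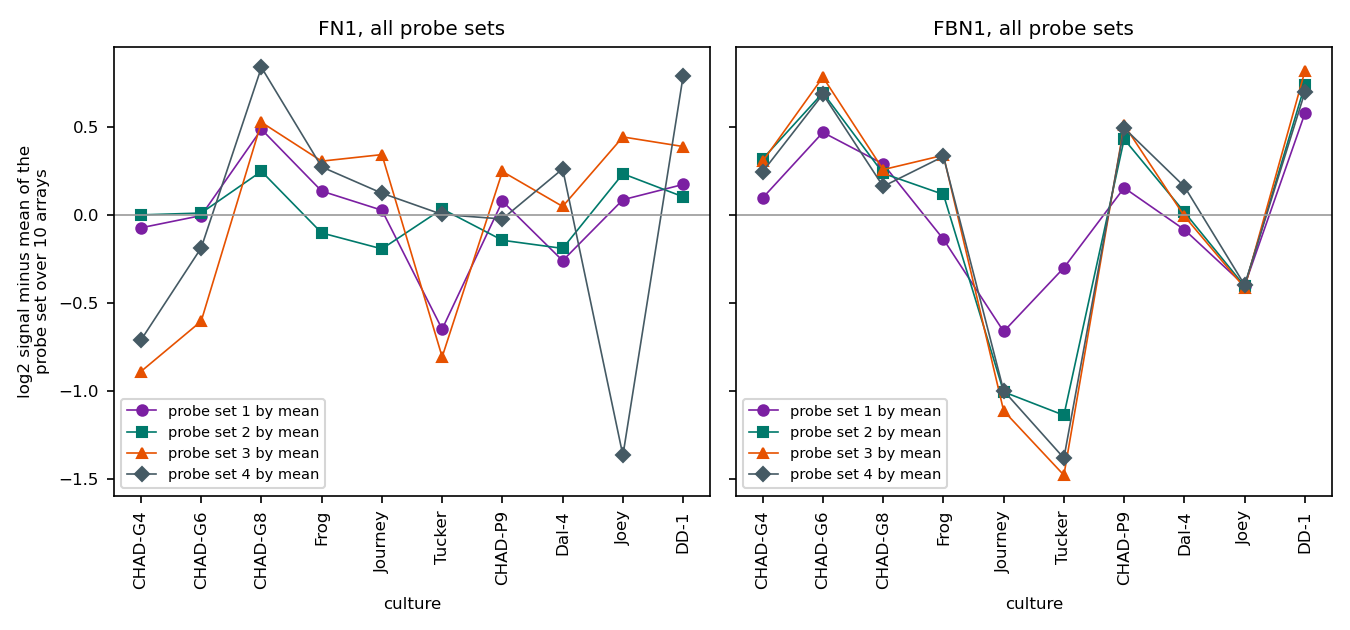
The log2 RMA signal minus the mean of the same probe set over the 10 arrays (vertical axis) in each culture (horizontal axis). Shown are the 4 probe sets of FN1 and the 4 of FBN1, numbered by falling mean. Lines join the points of 1 probe set and carry no order. The FBN1 probe sets fall together in Journey and Tucker, while the FN1 probe sets differ in which cultures are low. The fourth FN1 probe set is lowest in Joey, where its signal before this subtraction was 9.52.

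Reelin was bright in 1 culture. The first RELN probe set gave 12.86 in CHAD-G4, 6.53 in CHAD-G6 and 5.25 to 5.68 in the 8 other cultures. CHAD-G4 thus lay 6.32 log2 units, or 80.0-fold on the linear scale, above the next culture. The third probe set, which the filter removed because it was bright in a single array, gave 9.52 in CHAD-G4 and 3.95 to 4.43 elsewhere. All of the latter are dim, and the gap was at least 4.36 log2 units above their 40th percentiles. The second gave 6.26 in CHAD-G4 and 5.07 to 5.56 elsewhere, a gap of 0.70. All 3 probe sets were highest in CHAD-G4, by unequal amounts, and the signal of CHAD-G6 was raised only in the first.

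The reelin receptor VLDLR, which also takes up lipoproteins, was read by the brightest of its 3 probe sets. It was well above the dim range in every culture but Dal-4, at 8.72 to 10.13 against 5.13. Only this probe set of VLDLR met the size of a loss in Dal-4. LRP8 (6.38 to 7.08) varied little. DAB1, the adaptor that carries the signal inside the cell, lay near the 40th percentile, at 4.77 to 5.22. It was above that mark in 3 cultures, among them CHAD-G4, at 5.14 against 5.07. CHAD-G4, the culture with reelin, had 9.41 for VLDLR, inside the range of the others. As reelin is a product of lymphatic endothelium and of neurons, those markers were read in CHAD-G4. The mean of 4 lymphatic markers was 8.19 there and 6.03 to 8.16 in the other cultures, and it was 7.81 against 5.32 to 8.12 without LYVE1. LYVE1 was highest there (9.32 against 3.81 to 8.32), FLT4 was lowest there (6.47 against 6.50 to 6.88), PDPN was inside its range at 12.20, PROX1 was dim in all cultures but 1 (4.58 to 5.10), and the mean of 4 neural markers was 5.85 against 5.64 to 6.06. The mean of 5 smooth muscle markers was 7.34 in CHAD-G4 and 8.68 to 10.97 elsewhere, and without ACTA2 it was 7.57 and 7.68 to 10.24. Their part in the reelin signal was not tested.

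CHAD-G4 also had no more than a dim signal for LTBP2, a microfibril-associated protein that, unlike LTBP1, does not carry latent TGF-beta. The first LTBP2 probe set gave 4.45 in CHAD-G4, below the 40th percentile, against 9.57 in CHAD-G6, 10.81 in CHAD-G8, 11.04 in Frog, 10.32 in Journey and 9.47 in Tucker. In the other breeds it gave 10.28 in CHAD-P9, 10.42 in Dal-4 and 9.45 in Joey, and the F1 dog had the highest signal, 11.17. With the dim signal of CHAD-G4 raised to the 40th percentile of its array, it lay at least 20.8-fold below the next culture. The second gave 4.37 in CHAD-G4 and 8.20 to 10.18 elsewhere, a gap of at least 3.12 by the same measure, and its correlation with the first over 10 arrays was 0.994.

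The 3 other LTBP2 probe sets did not show the loss at this size. The third was lowest in CHAD-G4, at 6.25, but reached no more than 7.11 in any culture, the fourth ran from 6.00 to 6.55, and the fifth (4.46 to 4.93) was dim in all 10 cultures. The probe sets named for LTBP2 thus disagreed, and the loss rests on the pair with bright signals elsewhere.

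**Figure D3:**
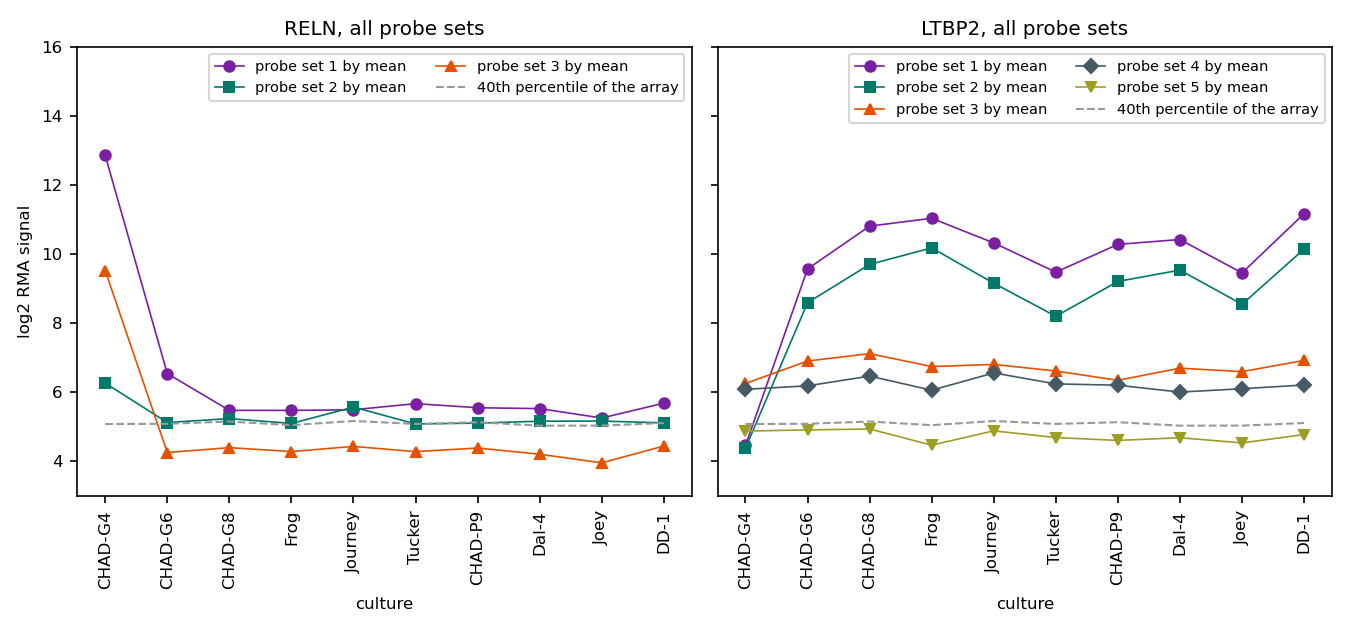
The log2 RMA signal (vertical axis) of the 3 probe sets of RELN and the 5 of LTBP2 in each culture (horizontal axis), numbered by falling mean, with lines that join the points of 1 probe set and carry no order and a dashed line at the 40th percentile of each array. In CHAD-G4 the first RELN probe set stands at 12.86 and the first LTBP2 probe set at 4.45, while the 3 dimmer LTBP2 probe sets stay nearly level.

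LTBP1, the carrier of latent TGF-beta, did not share the loss. Its only probe set was 6.04 in CHAD-G4, near the median of the 10 cultures, 6.03, and ran from 5.33 in Joey to 6.90 in Frog. The signals of the related LTBP3 (7.58 to 9.54) and LTBP4 (6.74 to 7.81) were above the dim range in all cultures. So were those of the ligands TGFB1 (6.49 in CHAD-G4, the lowest, and 8.10 to 9.31 elsewhere), TGFB2 (8.47 to 10.49) and TGFB3 (7.45 to 8.43). Of the 7 genes listed for TGF-beta ligands and activators, 0 were gained or lost in CHAD-G4 by 2 log2 units, though TGFB1 would be lost there at a size of 1.5.

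Fibrillin 1 was high in all cultures, and its 4 probe sets ordered the cultures much alike. The first was highest in the F1 dog, at 13.23, and in CHAD-G6, at 13.12, and lowest in Journey, at 11.99. The third gave 8.11 in Tucker and 8.48 in Journey, and 9.18 to 10.40 in the 8 other cultures. The second (9.95 and 10.08) and the fourth (8.05 and 8.43) also put Tucker and Journey lowest, and the correlations of the second, the third and the fourth with the first were 0.896, 0.848 and 0.821. The difference between cultures was wider in the dimmer probe sets, with a range of 1.24 log2 units for the first and 2.29 for the third.

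Elastin had the narrowest range of the first probe sets of LTBP2, LTBP1, FBN1 and ELN, 0.533 log2 units. Its first probe set ran from 6.59 in Dal-4 to 7.12 in CHAD-G8 and its second from 5.43 to 5.86, and they correlated at 0.719. Of the enzymes that cross-link elastin, LOX ran from 9.41 to 12.34 and LOXL2 from 12.64 to 13.35. Of 19 other elastic fibre genes named on the array, 13 were above the dim range in all 10 cultures.

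Gains and losses in a single culture were counted with the same size for every probe set, 2 log2 units from every other culture. Of the 22 tested member probe sets, 1 was gained, the first of RELN, and 2 were lost, the first and second of LTBP2, all in CHAD-G4. Over the 26787 tested probe sets, 0.37% were gained in some culture and 0.553% were lost, and for CHAD-G4 alone the shares were 0.142% and 0.179%. With every probe set counted, the third of RELN was added, so that 2 of 25 were gained, against 0.592% of 42924, and the same 2 LTBP2 probe sets were lost, against 0.345%. A culture that stood apart within the Golden Retriever group, by more than 0.625 of the group's range from its nearest neighbour, was seen in 5 of the 25 member probe sets, 4 of the 22 tested, and in 8.34% of all tested probe sets. As the genes were picked for such patterns, nothing is read from these shares.

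Other matrix genes moved in CHAD-G4 too. Among the listed genes, fibulin 3 (EFEMP1), a microfibril-associated protein, was gained, at 12.10 against 3.99 to 8.83. SMOC1, a relative of SPARC, was gained by 2 of its 4 probe sets, at 9.90 against 4.12 to 7.77 and at 8.06 against 4.18 to 5.50, while its leading probe set gave 6.47 in a range of 6.38 to 6.80. Thrombospondin 2 (THBS2), a matricellular protein that slows vessel growth, was lost, at 4.94 against 9.08 to 13.78. Elsewhere, SPON1 was gained in CHAD-G6, at 11.14 against 5.89 to 8.74. SMOC2, which did not pass the filter, was also gained there, at 9.91 against 3.95 to 4.86. CCN2 was lost in Joey, at 9.76 against 12.55 to 13.40.

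The study compared tumors of Golden Retrievers with those of other breeds, and for the matrix genes no difference between the groups passed by limma at an adjusted p under 0.05. Of the 22 tested member probe sets 0 passed, with adjusted p from 0.772 to 0.992, and over the whole array 0.00373% passed, which is 1 of 26787. At an unadjusted p under 0.05, 1 member probe set differed, that of TNC, against 6.33% of all tested probe sets in either direction and 1.81% higher in Golden Retrievers. The arrays of the groups overlapped for all 25 member probe sets, whereas 2.46% of the tested probe sets did not overlap. Of the tested members, 16 were higher and 6 lower in Golden Retrievers, with a median log2 difference of 0.14, where 47.1% of all tested probe sets were higher and their median was -0.02.

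The differences by gene were taken as the Golden Retriever mean less that of the other breeds, and those over 1 log2 unit moved with single cultures. TNC had a mean signal of 11.26 in the Golden Retrievers and 9.44 in the other breeds, a log2 difference of 1.83 (SE 0.653, adjusted p = 0.772). Without Dal-4 it was 0.90 and no longer at an unadjusted p under 0.05, and without CHAD-P9, the non-Golden Retriever with the highest TNC signal, it was 2.71. The first probe set of SPP1 had means of 6.53 and 4.61, a difference of 1.92 (SE 0.956, adjusted p = 0.776) that came to 1.21 without Dal-4 and 3.00 without CHAD-P9. POSTN had means of 8.01 and 6.37, a difference of 1.64 (SE 1.40, adjusted p = 0.851). It was 0.55 without Dal-4, 2.57 without Journey and 0.14 without both CHAD-G4 and Dal-4.

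RELN and LTBP2 differed in opposite directions through CHAD-G4. The first RELN probe set had a difference of 1.48 (SE 1.52, adjusted p = 0.881) and 0.29 without that culture. The first LTBP2 probe set had a difference of -0.77 (SE 1.28, adjusted p = 0.938) and 0.19 without it. The remaining first probe sets differed by 0.22 (SPARC), 0.02 (FN1), 0.24 (LTBP1), 0.07 (FBN1) and 0.13 (ELN), with adjusted p no smaller than 0.802. For FN1 the third and the fourth probe sets pointed in opposite directions, -0.43 and 0.43. For FBN1 the second, the third and the fourth gave -0.14, -0.18 and -0.24, against 0.07 for the first.

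**Figure D4:**
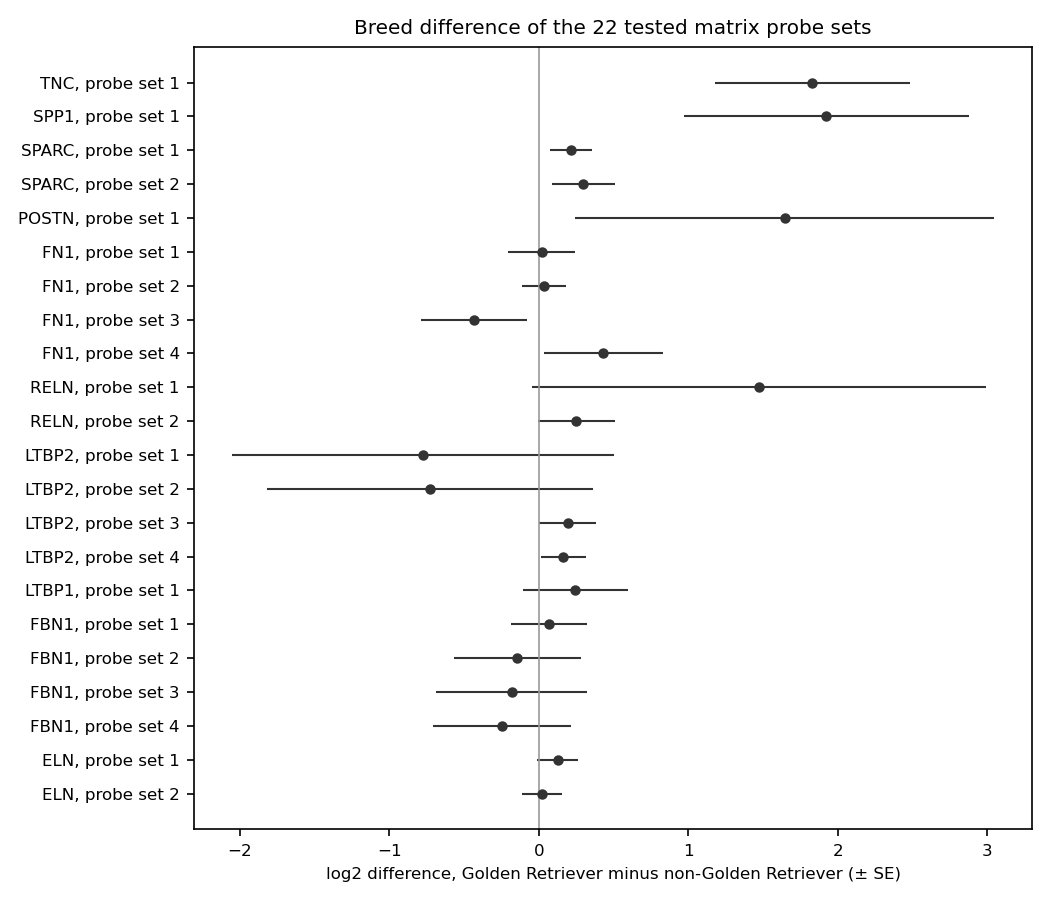
The difference in mean log2 signal between Golden Retrievers and the other breeds (horizontal axis, positive where Golden Retrievers were higher) of each tested probe set of the 10 genes (rows), with bars for 1 SE of the limma fit on 6 against 3 arrays and the F1 dog left out. The widest differences, of SPP1 (1.92), TNC (1.83) and POSTN (1.64), have SEs of 0.653 to 1.40, and those of SPARC and ELN lie near 0.

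The partners of these proteins were read in the same comparison, each gene by its brightest probe set. Of 16 other matricellular genes named on the array, 11 were tested, 9 were higher and 2 lower in Golden Retrievers, the median difference was 0.51, and 0 passed at an adjusted p under 0.05 by limma. At an unadjusted p under 0.05, 1 did, SPON1, a secreted protein related to the thrombospondins, with a difference of 2.06 (SE 0.815, adjusted p = 0.772). Over all tested probe sets, 6.33% were past that unadjusted threshold. Of 17 tested elastic fibre genes, 12 were higher and 5 lower (median 0.09), and 0 passed at either threshold. Of the 7 TGF-beta genes, 3 were higher and 4 lower (median -0.02), and 0 passed at either threshold.

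Of 18 receptors and intracellular partners of the 10 proteins, 16 were tested, 12 were higher and 4 lower (median 0.13), and 0 passed at an adjusted p under 0.05. VLDLR alone of the 16 was at an unadjusted p under 0.05 by limma, against 6.33% of all tested probe sets. Its difference was 1.92 (SE 0.743, adjusted p = 0.772) and 0.67 without Dal-4. Among the integrin chains listed, ITGB1 ran from 12.42 to 13.36, ITGAV from 12.09 to 13.45, ITGA5 from 10.64 to 12.56 and ITGB5 from 11.10 to 12.98, while ITGA4 (3.03 to 4.10) was above the 40th percentile in 0 cultures and ITGA9 (4.17 to 5.66) in 1. The osteopontin receptor CD44 ran from 9.85 to 11.02. Among the markers, 1 of 5 tested endothelial genes was at an unadjusted p under 0.05 by limma, ERG (0.90, SE 0.356, adjusted p = 0.772). So was 1 of 7 tested fibroblast and pericyte genes, the proteoglycan DCN (0.74, SE 0.297, adjusted p = 0.772, and 0.43 without CHAD-P9). The other marker lists had 0 such genes, and the share over all tested probe sets was 6.33%. Both ERG and DCN were higher in Golden Retrievers. Their part in the TNC difference was not tested.

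Co-variation was read as Pearson's r over the 10 arrays between the first probe sets, which share their arrays and a single dog each, and is a description with no test. Of the 45 pairs of genes, 38 had a positive r, the median was 0.31, and 6 were at or past 0.7 in size. TNC, SPP1 and SPARC formed a trio, with r of 0.80 for TNC and SPP1, 0.72 for TNC and SPARC and 0.73 for SPP1 and SPARC, and Spearman rank correlations of 0.75, 0.60 and 0.45. Without Dal-4 and Joey, where all 3 genes were low, these fell to 0.45, 0.33 and 0.34, and without CHAD-G4 and Dal-4 they were 0.67, 0.83 and 0.70.

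SPARC and FBN1 were high and low in much the same cultures (r = 0.74, rank correlation 0.78), and r was 0.85 without Dal-4 and Joey. FN1 and ELN had r of 0.74 and a rank correlation of 0.76, and r was 0.77 without CHAD-G8 and Tucker. Their r was 0.58 without CHAD-G8 alone and 0.89 without Tucker alone. RELN and LTBP2 had the r of largest size among the 45 pairs, -0.95, but their rank correlation was -0.27. Without CHAD-G4 the r was -0.28, and without CHAD-G4 and CHAD-G6 it was 0.31, so this relation rests on a single culture. TNC and ELN lay just under the limit.

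**Figure D5:**
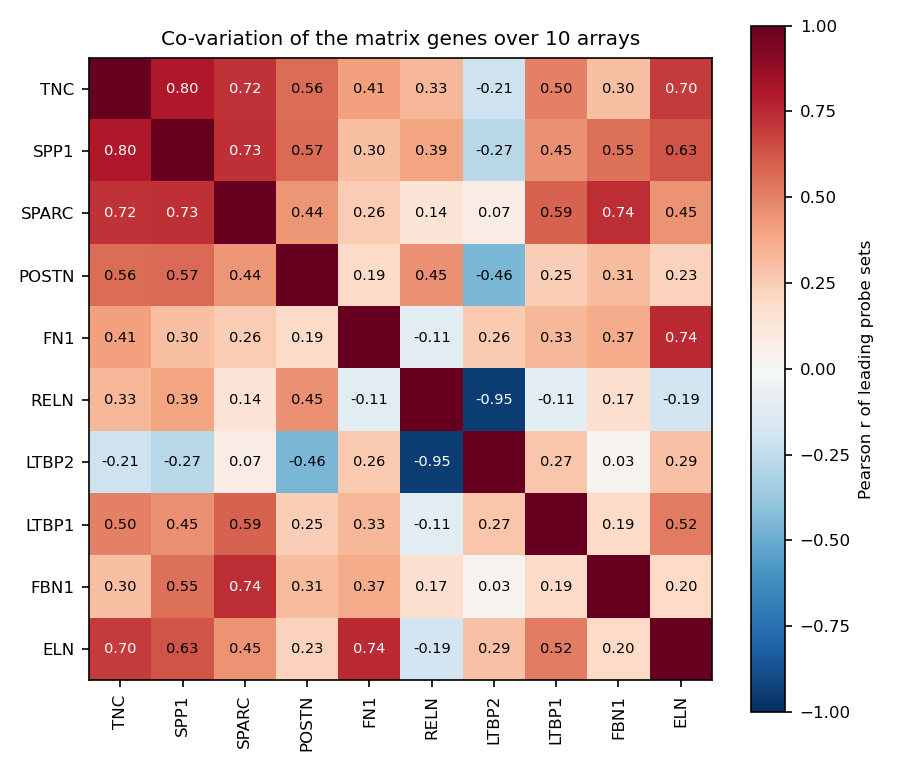
Pearson's r over 10 arrays (color scale from -1 to 1, printed in each cell) between the first probe sets of the 10 genes, with 1 row and 1 column per gene. TNC, SPP1 and SPARC have positive r of 0.72 to 0.80 with each other, SPARC has 0.74 with FBN1, and the darkest negative cell, RELN with LTBP2 (-0.95), rests on CHAD-G4.

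The named genes whose pattern over the 10 arrays was most like that of a member were found over all tested probe sets, and say nothing of shared function. Nearest to SPARC were COL1A1 (r = 0.964), the main chain of type I collagen, DLC1 (0.918) and SHISA5 (0.914). Without Joey, the culture farthest from the median of SPARC, the r of COL1A1 was 0.957. Nearest to FBN1 were JPT1 (0.960), FRY (0.933) and S100A10 (0.896), and nearest to FN1 were the tetraspanin CD151 (0.929), SLC41A2 (0.929) and HEG1 (0.919), an endothelial junction protein. The r of CD151 was 0.820 without Tucker, where it was 8.69 against 10.01 to 11.14.

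TNC was nearest to TOX4 (0.958), ARHGDIB (0.953) and STMP1 (0.952), and without Dal-4 these r were 0.843, 0.807 and 0.804. ARHGDIB was also low in Dal-4, at 4.88 against 7.67 to 9.89. SPP1 was nearest to ABCA8 (0.959), ALG12 (0.940) and KCTD19 (0.936), with r of 0.955, 0.916 and 0.915 without Dal-4. POSTN was nearest to the peptide-amidating enzyme PAM (0.890), DYRK2 (0.856) and SULT1C4 (0.855). LTBP1 was nearest to PDLIM5 (0.887), DEPP1 (0.886) and the immediate early gene NR4A1 (0.884). ELN, whose whole range was 0.533 log2 units, was nearest to MUC2 (0.955), UMOD (0.947) and ADAM33 (0.942).

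The neighbours of RELN and LTBP2 were genes that also moved in CHAD-G4. PORCN, the enzyme that lipidates Wnt proteins, was 9.37 there and 6.16 to 7.40 elsewhere, with an r of 0.974 with RELN that was 0.894 without CHAD-G4. The r of SLC25A43 went from 0.976 to 0.777, and that of the adenylyl cyclase ADCY3 from 0.976 to 0.457. PLA2R1, a phospholipase receptor, was 4.18 in CHAD-G4 and 7.53 to 9.76 elsewhere, with an r of 0.947 with LTBP2 that was 0.764 without it. For UBE2V2 and ETFA the r with LTBP2 went from 0.964 to 0.571 and from 0.955 to 0.410.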

How the data were processed

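Cultured hemangiosarcoma cells of 10 dogs were measured on Canine_2 arrays, 1 per dog. The authors deposited log2 signals made by robust multiarray average (RMA, in the affy package, versions not given in the sources used here), which sets every array to 1 distribution and so hides shifts common to all genes. Control probe sets (111 of 43035) were left out. The detection calls behind the authors' filter were not used here, and probe sets above the 40th percentile of their own array on at least 3 of the 9 purebred arrays were tested (26787). The 6 Golden Retriever arrays were compared with the 3 of other breeds with limma 3.58.1 in R 4.3.3, two-sided, with the F1 dog left out and Benjamini-Hochberg adjustment over all tested probe sets. The number of arrays limits the precision. The p-values set the difference between the group means against the spread between these dogs, and depth does not apply to arrays.

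Groups came from the breed labels, and from the title for Joey. Genes were named from the array's platform annotation, which gives 1 symbol for 29254 probe sets, several for 439 and none for 13231, and can be old. The 10 genes, the gene lists and the marker lists were chosen with earlier results of these data known. Named genes were the 10 members, the 3 named genes nearest in r to each, listed genes at an unadjusted p under 0.05 or gained or lost in a culture where a member was, and markers at least 2 log2 units from every other array. Receptors, ligands and relatives of the members outside this rule, such as LOX, LTBP3, TGFB1 and CD44, are named for their ranges and were chosen after their values were seen. TNXB and SPON2 were among listed genes not named on the array. A lone culture was called only by that size, with no test. The fit was tested on simulated data. Alternatives changed the filter, the centring, the test, the treatment of the F1 dog, the sex of the dogs, the probe set and the cultures included.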

Additional observations from a re-analysis of the deposited data

Results flagged for a closer look

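In 5 of the 25 member probe sets, the highest or the lowest of the 6 Golden Retriever cultures was separated from the nearest of the other Golden Retrievers by more than 0.625 of the group's whole range. Of these, 4 were among the 22 tested, where 8.34% of all tested probe sets were past this limit, and chance alone would flag about 1 in 20 groups. For RELN, CHAD-G4 was the highest, with a gap of 0.856 of the range in the first probe set and 0.966 in the third. For LTBP2, CHAD-G4 was the lowest, with 0.763 in the first probe set and 0.658 in the second. For POSTN, Journey was the lowest, with 0.669, at 3.38 where the nearest Golden Retriever, Tucker, had 7.86. These 5 probe sets belong to 3 genes and are not independent of each other or of the choice of genes. What sets these cultures apart was not tested.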

How the results depend on the processing

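No member probe set passed at an adjusted p under 0.05 by limma under any alternative run. At an unadjusted p under 0.05, 1 member passed, 0 without both CHAD-G4 and Dal-4, 2 among males alone and 0 to 3 with 1 dog left out. The 1 is TNC, and the 2 among males are SPP1 and POSTN, with TNC then past no threshold, as also without Dal-4. Dal-4 counts as male there by its record, against its signal at 1 EIF2S3 probe set. Over all tested probe sets, 1 passed the adjusted test, 2 without both CHAD-G4 and Dal-4, 0 with the F1 dog as a non-Golden Retriever, 2 by the methods' analysis of variance and 1 to 2 with 1 dog left out. The count at an unadjusted p under 0.05, 1695, was 1076, 918 and 1090 without both cultures, with the F1 dog as a non-Golden Retriever and with a filter on variance, and 966 to 3141 with 1 dog left out. Gained member probe sets numbered 1, 2 with all probe sets counted and 0 to 1 with 1 dog left out, and lost ones 2, with 0 to 3. The breed differences of 4 genes changed sign. FN1 (0.02) was -0.083 without both cultures, -0.032 with the F1 dog as a non-Golden Retriever, -0.046 among males, -0.43 by the third FN1 probe set and -0.095 to 0.15 with 1 dog left out. LTBP2 (-0.77) was 0.38 without both cultures, 0.19 and 0.16 by the third and the fourth probe sets and -1.13 to 0.19 with 1 dog left out. FBN1 (0.07) was -0.10 with the F1 dog as a non-Golden Retriever, -0.14, -0.18 and -0.24 by its other probe sets and -0.076 to 0.20 with 1 dog left out, and LTBP1 (0.24) -0.11 to 0.64. The r of RELN and LTBP2 was 0.31 without CHAD-G4 and CHAD-G6. The cause of these changes was not tested, beyond fewer arrays in each fit. TNC, SPP1, SPARC, POSTN, RELN and ELN kept their direction under every alternative run. Leaving out both CHAD-G4 and Dal-4 and counting all probe sets were chosen after the data were seen. With 6 and 3 dogs, a difference that did not pass is not shown to be absent, and probe sets near the 40th percentile measure mostly background. The planned search of protein and promoter sequences was not run, for want of sequence tables here. The labels number no replicates, so no pairing was made.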

Other observations

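Some markers outside the matrix genes also lay at least 2 log2 units from every other array. In CHAD-P9, the lymphatic marker PDPN and the epithelial keratin KRT8 were lower than in every other culture by that much, and in Journey, where POSTN was dim, the muscle filament gene DES was 9.48 against 6.46 to 7.39 elsewhere. In Dal-4, the culture with the lowest TNC and SPP1 signals, the mean of the 7 fibroblast and pericyte markers was 10.70, against 11.76 to 12.34 in the other cultures. That low mean comes from LUM, since the 6 others averaged 11.75 in Dal-4 and 11.39 to 12.08 elsewhere. Their part in the matrix signals was not tested.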
